A study of Mus musculus with 12 samples.

Results

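The genes described here are 45 mouse genes of DNA replication. They were taken from a list of gene names, drawn up with earlier results of these data known, and all 45 had at least 1 probe set, so that 45 of the 18193 genes measured in the series are covered. By role they are 6 genes of origin licensing, the 6 subunits of the Mcm2-7 helicase, 6 genes of origin firing, 2 E-type cyclins, 8 subunits of the replicative polymerases and primase, 6 of the sliding clamp and its loader, 3 of the single-strand binding protein RPA, 2 of lagging strand maturation, 4 of deoxynucleotide supply and 2 of maintenance DNA methylation. Each gene was read from the probe set with the highest mean log2 signal among those that the platform annotation assigns to its symbol.

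The study hybridized 12 Affymetrix arrays with cRNA of cells sorted from the back skin of untreated female mice, 72 to 74 days old and of mixed C57BL/6 and CD1 strain, at the stage when resting follicles pass into growth for the second time. Sorting by Rosa26-YFP, P-cadherin and CD34 gave hair germ (HG) cells and bulge cells, both hair follicle stem cells (HFSCs), as well as total keratinocytes of the skin. The genotypes are TßRII-cKO and TßRII-Het, after the receptor that Tgfbr2 encodes, which binds TGF-beta ligands, and each fraction of each genotype was collected in a set 2 and a set 1, with 1 array per genotype, fraction and set. In set 2 the labels call the cKO stem cells aberrantly quiescent and the Het stem cells activated, while set 1 is called quiescent in both genotypes and total keratinocytes carry no such state. Set and state therefore cannot be told apart in Het. All groups share the YFP reporter. The Cre driver, the alleles, any pooling of animals, and whether fractions or sets share mice are not stated in the labels, so that p-values here reflect differences among arrays rather than among mice. Where 4 values stand in a row, they are those of cKO set 2, cKO set 1, Het set 2 and Het set 1.

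Before a cell can copy its genome, the origin recognition complex, Cdc6 and Cdt1 load the Mcm2-7 ring onto DNA at origins, and cyclin E with its kinase, together with further factors, then turns the ring into an active helicase by adding Cdc45 and GINS. Polymerase alpha with primase lays down primers, polymerases epsilon and delta extend them on the leading and lagging strands with the PCNA clamp, and Fen1 and Lig1 join the lagging strand pieces. Many of these genes are under E2F and Rb control and are transcribed late in G1 and in S phase, and in resting hair follicles the hair germ is known to start dividing before the bulge.

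Because E2F sites are the best known shared feature of these promoters, the RefSeq windows from 250 bases before to 50 bases after the annotated start were searched on both strands for the letters TTTCCCGC, TTTCGCGC, TTTGCCGC and TTTGGCGC. Of the 45 members, 36 had a window, and 15 of these 36 (41.7%) held at least 1 match, against 3.8% of 14452 measured genes and 2.3% of all 32851 windows of the same length. The 15 were Orc1, Cdc6, Cdt1, Mcm3, Mcm5, Mcm6, Mcm7, Gins3, Pola1, Pold1, Pole2, Rfc3, Lig1, Uhrf1 and Dnmt1. Limited to genes with a single window, the share was 37.9% of 29 members, against 3.5% of 11791 measured genes. The letters CCAAT, on either strand, were in 24 of the 36 (66.7%) and in 42.0% of measured genes, and the letters TTTGAA, found in promoters of mitotic genes, were in 6 (16.7%) and 15.7%. A match is a description of the letters and no evidence of binding.

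The 8 windows printed are the 4 of Mcm2-7 subunits with a match, those of Orc1 and Uhrf1, whose HG and bulge signals lay farthest apart on the probe sets used, that of Pole2, which holds a match and whose signals lay closest, and that of Tk1, which has a large difference and no match. All are from RefSeq on build GRCm38.p6 and run 5′ to 3′ on the strand of the gene, with the E2F letters of either strand in capitals. They lie at chr1:20820263-20820562 (Mcm3, minus strand), chr8:75109259-75109558 (Mcm5, plus strand), chr1:128359656-128359955 (Mcm6, minus strand), chr5:138171834-138172133 (Mcm7, minus strand), chr4:108579204-108579503 (Orc1, plus strand), chr17:56304063-56304362 (Uhrf1, plus strand), chr11:117825965-117826264 (Tk1, minus strand) and chr12:69228141-69228440 (Pole2, minus strand).
Mcm3: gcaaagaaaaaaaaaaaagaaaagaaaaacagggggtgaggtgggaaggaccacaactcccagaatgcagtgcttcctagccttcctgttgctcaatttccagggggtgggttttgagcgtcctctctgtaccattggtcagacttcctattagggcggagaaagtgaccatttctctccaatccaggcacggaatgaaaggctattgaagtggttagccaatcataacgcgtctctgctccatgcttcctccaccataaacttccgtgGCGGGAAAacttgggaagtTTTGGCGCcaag
Mcm5: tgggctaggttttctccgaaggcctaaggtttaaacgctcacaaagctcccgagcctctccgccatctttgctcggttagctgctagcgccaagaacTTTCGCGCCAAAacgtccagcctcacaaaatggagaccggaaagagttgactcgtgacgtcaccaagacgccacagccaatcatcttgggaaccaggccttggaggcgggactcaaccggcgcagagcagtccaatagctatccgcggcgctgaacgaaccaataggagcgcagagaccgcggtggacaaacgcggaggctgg
Mcm6: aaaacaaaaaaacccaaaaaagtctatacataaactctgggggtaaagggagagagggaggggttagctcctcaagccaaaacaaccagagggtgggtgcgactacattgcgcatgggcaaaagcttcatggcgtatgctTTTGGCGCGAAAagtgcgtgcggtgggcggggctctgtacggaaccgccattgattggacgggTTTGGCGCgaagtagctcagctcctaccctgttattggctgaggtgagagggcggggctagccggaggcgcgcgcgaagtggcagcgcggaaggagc
Mcm7: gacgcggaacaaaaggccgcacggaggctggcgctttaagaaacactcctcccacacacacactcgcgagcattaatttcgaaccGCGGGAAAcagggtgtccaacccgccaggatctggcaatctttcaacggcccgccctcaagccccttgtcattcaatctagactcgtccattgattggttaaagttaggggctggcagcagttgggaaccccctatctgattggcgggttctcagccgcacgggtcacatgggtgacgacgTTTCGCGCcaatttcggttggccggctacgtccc
Orc1: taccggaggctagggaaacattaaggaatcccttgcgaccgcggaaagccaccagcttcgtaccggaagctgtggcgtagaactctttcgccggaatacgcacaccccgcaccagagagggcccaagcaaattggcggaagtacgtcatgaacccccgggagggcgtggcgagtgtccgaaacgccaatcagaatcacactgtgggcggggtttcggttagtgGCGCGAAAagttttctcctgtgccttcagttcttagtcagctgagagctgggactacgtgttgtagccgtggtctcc
Uhrf1: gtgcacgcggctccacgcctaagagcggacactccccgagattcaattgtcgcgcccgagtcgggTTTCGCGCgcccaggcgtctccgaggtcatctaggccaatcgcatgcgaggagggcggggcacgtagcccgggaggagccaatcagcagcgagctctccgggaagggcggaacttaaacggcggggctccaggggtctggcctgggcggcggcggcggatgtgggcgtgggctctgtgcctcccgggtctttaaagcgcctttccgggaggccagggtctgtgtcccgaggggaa
Tk1: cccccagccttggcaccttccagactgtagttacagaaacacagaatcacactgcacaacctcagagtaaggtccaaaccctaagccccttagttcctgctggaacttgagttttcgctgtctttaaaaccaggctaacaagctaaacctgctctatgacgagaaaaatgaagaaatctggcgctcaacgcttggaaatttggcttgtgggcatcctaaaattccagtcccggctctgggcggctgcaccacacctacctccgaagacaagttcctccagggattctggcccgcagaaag
Pole2: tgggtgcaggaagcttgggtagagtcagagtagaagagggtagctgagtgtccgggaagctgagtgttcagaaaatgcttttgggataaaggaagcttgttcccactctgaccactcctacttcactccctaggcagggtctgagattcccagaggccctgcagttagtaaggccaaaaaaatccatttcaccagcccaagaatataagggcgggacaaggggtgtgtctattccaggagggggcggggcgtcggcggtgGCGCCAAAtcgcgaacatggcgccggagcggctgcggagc
In Mcm5 the 2 matches overlap, on opposite strands, with their first bases at -153 and -149 from the start. Mcm6 holds such an overlapping pair at -110 and -106 and a further match at -47. Mcm3 has its 2 matches downstream, at 19 and 38, and Mcm7 has 1 on either side of the start, at -165 and 16. Single matches lie at -27 in Orc1, -185 in Uhrf1 and 10 in Pole2.

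The deposited values are MAS5 signals, and a log2 signal is the log2 of that intensity on an array scaled to a common mean, so that a difference of 1 is 2-fold and levels of different probe sets are not comparable. Median signal lay between 63.9 and 109 per array. The targeted gene Tgfbr2 had log2 signals of 11.31, 12.02, 10.35 and 11.48 in HG, 11.89, 12.14, 11.92 and 12.39 in bulge, and 11.78, 12.09, 11.68 and 11.96 in total keratinocytes, which did not separate the genotypes, and the labels do not say where its probes lie relative to the deletion. Of 7 hair germ markers 5 were higher and 0 lower in HG than in bulge, and of 8 bulge markers 0 were higher and 7 lower. Of 12589 genes, 8.44% were higher and 10.7% lower. These lists include the sort markers Cdh3 and Cd34. Fgf18, among the 7, lay below the filter on low signal on every HG array (5.13, 3.45, 2.31 and 5.50). It passed through bulge arrays alone and so had to be lower. In bulk samples more cells in S phase and more RNA per cell cannot be told apart.

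HG cells carried more replication transcripts than bulge cells in both genotypes and both sets. Of the 44 members that passed the filter on low signal, 35 were higher in HG than in bulge and 0 were lower. These calls are by limma at an adjusted p under 0.05, where 8.44% of 12589 genes were higher and 10.7% lower. Orc1 passed the filter through its HG arrays alone and so had to differ. For the other 43, which passed on arrays of both fractions, 34 were higher, and the differences ran from 0.06 (Pole2) to 2.31 (Uhrf1) on the log2 scale, with a median of 1.15 and a median over all genes of -0.02. The largest of these were those of Uhrf1, Ccne2, Tk1, Gins1, Mcm5, Rrm1 and Pole. The mean log2 signal of the 45 members was 10.58 ± 0.48 in HG, against 9.42 ± 0.17 in bulge and 10.14 ± 0.31 in total keratinocytes (SD, n = 4 arrays each). Array by array this mean was 10.47, 10.32, 11.29 and 10.25 in HG, 9.35, 9.46, 9.64 and 9.25 in bulge, and 10.09, 10.01, 10.59 and 9.87 in total keratinocytes. The HG arrays all lay above the bulge arrays, and the array of Het HG set 2 lay apart from the other HG arrays by more than these differed among themselves.

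**Figure D1:**
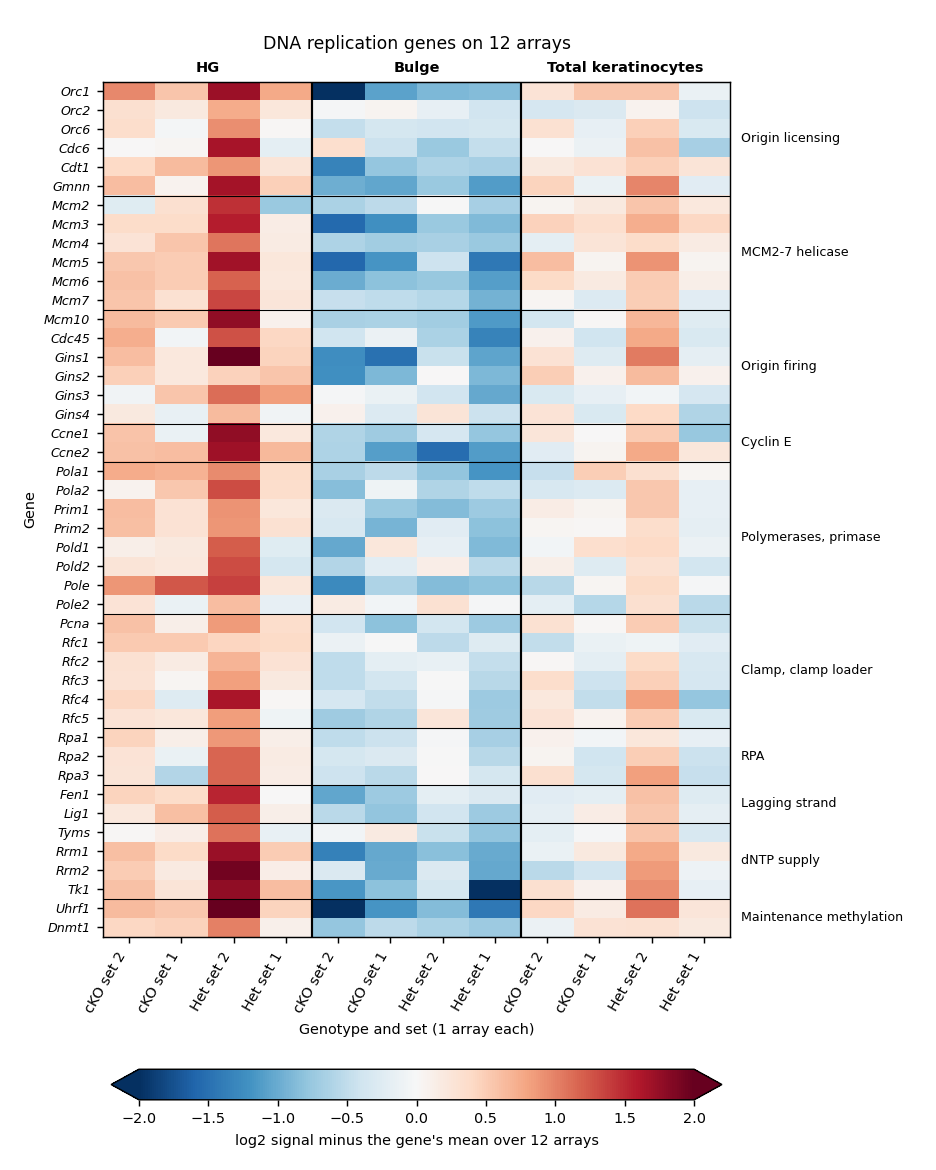
Log2 signal of the 45 genes (rows, by role) on 12 arrays (columns, by fraction), each as the difference from the mean of that gene over the 12 arrays, with colours ending at 2 in either direction. The column of Het HG set 2 is the highest of all 12 for 43 of 45 genes, and the bulge columns are mostly below the mean.

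Among the licensing genes, 4 of 6 rose in HG relative to bulge. Orc1, the largest subunit of the origin recognition complex, had log2 signals of 7.74, 7.33, 8.49 and 7.54 in HG, against 2.95, 5.71, 5.88 and 5.91 in bulge and 7.06, 7.33, 7.34 and 6.65 in total keratinocytes. The bulge array of cKO set 2 was the only member value below the floor of 4.37 at which values entered the fit. HG and bulge did not overlap on this probe set, with a fitted difference of 2.31 (SE 0.42, adjusted p = 0.00562), which depends on the floor: it was 1.37 with the floor at the pooled median. The call was lost with no filter (adjusted p = 0.0707) and with the mean of both Orc1 probe sets (1.2, adjusted p = 0.12), since the dimmer probe set differed by 0.09. Geminin (Gmnn), which restrains Cdt1, differed by 1.67 (SE 0.21, adjusted p = 8.55e-04). Cdt1, which brings Mcm2-7 to origins, differed by 1.39 and Orc6 by 0.71, whereas Orc2 (0.50, adjusted p = 0.0915) did not pass the threshold. Cdc6, the partner of Cdt1 in loading, had 8.53, 8.55, 10.16 and 8.32 in HG, against 8.86, 8.09, 7.77 and 8.04 in bulge and 8.52, 8.40, 9.10 and 7.86 in total keratinocytes. Its Het HG set 2 array stood above every other array, the remaining HG and bulge values overlapped, and the difference of 0.70 was not past the threshold (adjusted p = 0.25).

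Of the Mcm2-7 helicase, 5 of 6 subunits rose in HG. Mcm5 had 12.08, 12.05, 13.22 and 11.77 in HG, against 9.97, 10.36, 11.13 and 10.11 in bulge and 12.16, 11.59, 12.44 and 11.59 in total keratinocytes. Every HG array and every total keratinocyte array lay above every bulge array, and HG exceeded bulge by 1.89 (SE 0.16, adjusted p = 8.35e-05), the smallest adjusted p among the members. Mcm3, Mcm6, Mcm7 and Mcm4 differed by 1.72, 1.53, 1.23 and 1.19 without overlap between HG and bulge. Mcm2 did not pass, with 9.92, 10.48, 11.62 and 9.42 in HG, against 9.52, 9.64, 10.15 and 9.49 in bulge and 10.21, 10.35, 10.71 and 10.36 in total keratinocytes. Its Het HG set 1 array lay below all 4 bulge arrays while its Het HG set 2 array was the highest of the 12, and the difference of 0.66 was not past the threshold (adjusted p = 0.0918). This depended on the probe set: a second Mcm2 probe set, with a mean log2 signal of 10.08 against 10.16 for the one used, differed by 1.73 between HG and bulge.

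Among the 6 origin firing genes, 4 rose in HG. Gins1, a subunit of the GINS complex that joins Mcm2-7 and Cdc45 in the active helicase, had 10.12, 9.72, 11.58 and 9.95 in HG, against 8.26, 8.01, 9.06 and 8.45 in bulge and 9.80, 9.25, 10.54 and 9.32 in total keratinocytes. HG and bulge were separate by 1.90 (SE 0.21, adjusted p = 4.19e-04). Mcm10, which helps to activate the loaded helicase, differed by 1.53, Cdc45 by 1.21 and Gins2 by 1.18. The remaining GINS subunits did not pass, with 1.00 for Gins3 (adjusted p = 0.0775) and 0.24 for Gins4 (adjusted p = 0.314). Both E-type cyclins rose in HG. Ccne2 had 9.83, 9.87, 10.94 and 9.90 in HG, against 8.63, 8.15, 7.73 and 8.13 in bulge and 9.03, 9.30, 10.01 and 9.47 in total keratinocytes, and Ccne1 had 8.35, 7.64, 9.55 and 7.99 in HG, against 7.17, 7.07, 7.44 and 7.0 in bulge and 8.02, 7.79, 8.28 and 7.02 in total keratinocytes. Neither overlapped between HG and bulge, and the differences were 1.98 (SE 0.30, adjusted p = 0.00221) for Ccne2 and 1.21 (SE 0.31, adjusted p = 0.0245) for Ccne1.

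Of the 8 polymerase and primase subunits, 5 rose in HG. Pole, the catalytic subunit of the leading strand polymerase epsilon, had 9.64, 9.99, 10.11 and 8.97 in HG, against 7.47, 8.13, 7.88 and 7.95 in bulge and 8.20, 8.79, 9.14 and 8.73 in total keratinocytes. HG exceeded bulge by 1.82 (SE 0.25, adjusted p = 0.00124) with no overlap. Its accessory subunit Pole2 had 10.71, 10.31, 11.06 and 10.28 in HG, against 10.60, 10.39, 10.74 and 10.41 in bulge and 10.24, 9.87, 10.76 and 9.90 in total keratinocytes, which overlapped in all fractions, with HG higher than bulge in 2 of 4 pairs and a difference of 0.06 (adjusted p = 0.838). The 4 subunits of polymerase alpha and primase all rose, by 1.47 for Pola1, 1.16 for Prim1, 1.10 for Prim2 and 1.07 for Pola2. The polymerase delta subunits lay just outside the threshold, with 0.77 for the catalytic Pold1 (adjusted p = 0.0533) and 0.66 for Pold2 (adjusted p = 0.0502). Pold2 had 10.17, 10.12, 11.22 and 9.56 in HG, against 9.32, 9.70, 10.04 and 9.38 in bulge and 10.03, 9.65, 10.22 and 9.55 in total keratinocytes, so that the Het set 1 HG array fell among the bulge arrays.

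All 6 clamp and clamp loader genes rose in HG, by smaller amounts. Pcna, the sliding clamp, had 14.47, 14.00, 14.73 and 14.23 in HG, against 13.50, 13.06, 13.51 and 13.15 in bulge and 14.18, 13.90, 14.38 and 13.43 in total keratinocytes, and HG exceeded bulge by 1.05 (SE 0.16, adjusted p = 0.00228). The loader subunits Rfc1 to Rfc5 differed by between 0.69 and 0.85. Rfc4 had 11.09, 10.42, 12.30 and 10.69 in HG, against 10.33, 10.18, 10.65 and 9.94 in bulge and 10.89, 10.18, 11.49 and 9.90 in total keratinocytes. Its HG and bulge arrays overlapped, although HG was the higher in every condition. Of RPA, which coats single-stranded DNA at the fork, the subunits Rpa1 and Rpa2 rose and Rpa3 (0.57, adjusted p = 0.0786) did not pass. Rpa1 had 12.33, 12, 12.74 and 11.99 in HG, against 11.37, 11.45, 11.85 and 11.21 in bulge and 11.96, 11.82, 12.10 and 11.72 in total keratinocytes, and Rpa2 had 10.14, 9.74, 11.04 and 10.04 in HG, against 9.53, 9.59, 9.87 and 9.32 in bulge and 9.93, 9.48, 10.36 and 9.45 in total keratinocytes. The differences were 0.80 for Rpa1, without overlap, and 0.66 for Rpa2, with overlap.

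Both genes of lagging strand maturation rose in HG, the flap nuclease Fen1 by 1.15 and the ligase Lig1 by 1.15. Fen1 had 10.97, 10.89, 12.04 and 10.53 in HG, against 9.49, 9.80, 10.33 and 10.23 in bulge and 10.29, 10.32, 11.11 and 10.26 in total keratinocytes, with no overlap of HG and bulge. For nucleotide supply, thymidine kinase Tk1 had 10.10, 9.78, 11.29 and 10.14 in HG, against 8.36, 8.70, 9.16 and 7.45 in bulge and 9.84, 9.60, 10.45 and 9.36 in total keratinocytes. HG exceeded bulge by 1.91 (SE 0.26, adjusted p = 0.00113), and the bulge array of Het set 1 was the lowest of the 12. The ribonucleotide reductase subunits Rrm1 and Rrm2, which make deoxynucleotides, differed by 1.86 and 1.34. Thymidylate synthase Tyms was too dim for this fit, with log2 signals of 6.24, 6.36, 7.31 and 6.08 in HG, against 6.17, 6.40, 5.78 and 5.43 in bulge and 6.03, 6.20, 6.77 and 5.90 in total keratinocytes. Of the methylation pair, Uhrf1, which finds hemimethylated DNA behind the fork, had 11.36, 11.28, 12.77 and 11.18 in HG, against 8.66, 9.55, 9.86 and 9.30 in bulge and 11.15, 10.90, 11.82 and 10.98 in total keratinocytes. It differed by 2.31 (SE 0.22, adjusted p = 1.89e-04) between HG and bulge, and the methyltransferase Dnmt1 that it recruits by 1.16, neither with overlap.

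**Figure D2:**
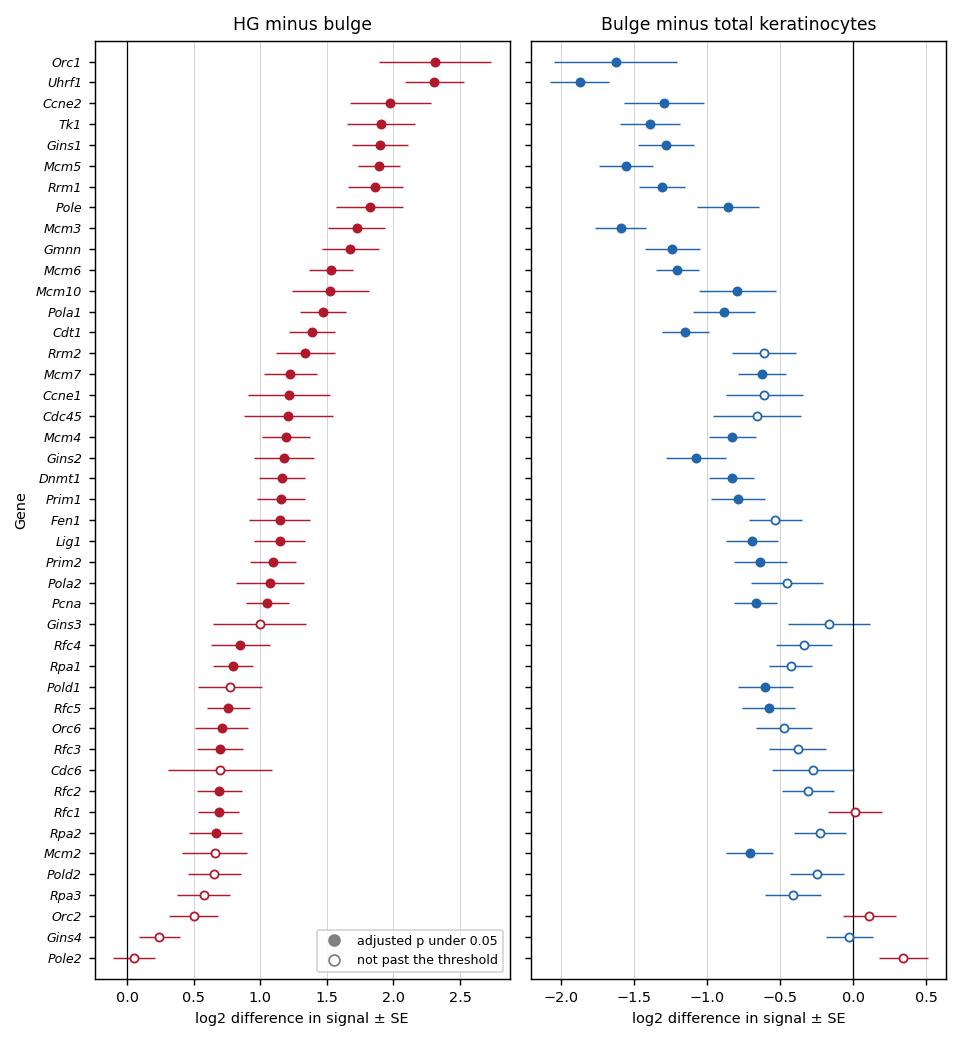
Log2 difference in signal with its SE for the 44 genes tested, HG minus bulge (left) and bulge minus total keratinocytes (right), ordered by the left panel; filled points have an adjusted p under 0.05. The left panel has 35 filled points, all above 0, and the right panel 25, all below 0.

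HG exceeded bulge by at least 2-fold for 21 members in cKO set 2, 21 in cKO set 1, 36 in Het set 2 and 20 in Het set 1, where 8.97%, 7.4%, 13.6% and 9.15% of all genes did so. The medians of these single-array differences over the 45 members were 0.97, 0.94, 1.65 and 0.91. Without the Het set 2 arrays 34 of 44 members rose, where 10.7% of 12392 genes did so. HG was higher in all 4 conditions for 38 of the 44, a count for which the share of all genes was not taken. HG and bulge arrays did not overlap for 33 of 45 members, against 9.25% of all genes. Members with the E2F letters rose in 11 of 15 cases (median difference 1.23) and those without them in 16 of 20 (median 0.95). Orc1, which passed the filter through HG alone, is counted in the 38, the 33 and the 11. The count of 35 became 23 without the cKO set 2 arrays (4.04% of all genes) and 17 with no filter on low signal (1.25%).

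Markers of other cells differed between the same fractions. Of 8 fibroblast markers 0 were higher and 8 lower in HG, with a summed signal of 16146 to 29379 in HG, against 132659 to 294593 in bulge. Of 9 melanocyte markers 8 were higher and 1 lower, with a summed signal of 12338 to 21711 in HG, against 7263 to 9587 in bulge. The lower 1, Mitf, made up most of the bulge sum. Its log2 signals were 12.53, 12.74, 12.56 and 12.79 in bulge, against 10.75, 11.01, 9.96 and 10.82 in HG. Tyr, among the 8 higher melanocyte markers, lay below the filter on low signal on every bulge array, with a highest log2 signal of 5.93 there. It passed through HG arrays alone and so had to be higher. No marker of either list was at the floor, which lies below this filter, throughout a fraction. Their part in the replication result was not tested.

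On average over the members, total keratinocytes lay between the HG and bulge fractions. Bulge cells were lower than total keratinocytes for 25 of 44 members and higher for 0, where 11.5% of 12317 genes were lower, with a median of -0.65 (all genes 0.04). Without Orc1, which passed the filter through total keratinocytes alone, 24 of 43 were lower. The largest differences were -1.87 for Uhrf1, -1.63 for Orc1, -1.59 for Mcm3, -1.56 for Mcm5, -1.39 for Tk1, -1.31 for Rrm1, -1.29 for Ccne2 and -1.28 for Gins1. The call of Orc1 was lost with no filter, with the mean of its probe sets, and without cKO set 2, cKO set 1 or Het set 2. All 6 Mcm2-7 subunits fell in bulge relative to total keratinocytes, Mcm2 by 0.71 among them. Pole2, Orc2 and Rfc1 had small positive differences (0.34, 0.11 and 0.01) that did not pass. Every array of total keratinocytes lay above every bulge array for 23 of 45 members, against 11.2% of all genes. The count of 25 became 16 without the cKO set 1 arrays (7.24% of all genes lower) and 12 with no filter (3.48%).

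HG cells exceeded total keratinocytes for 8 of 45 members, where 5.87% of 11970 genes were higher, and 0 were lower, where 6.07% were. They were Pole (0.96), Rrm2 (0.73), Rfc1 (0.70), Ccne2 (0.68), Gins1 (0.62), Fen1 (0.61), Orc2 (0.61) and Mcm7 (0.60). The differences were positive for 44 of 45, with a median of 0.44 (all genes 0.04), but HG lay wholly above total keratinocytes only for Orc2 and Rfc1, against 7.99% of all genes. The count of 8 became 0 without the cKO set 2 arrays (1.45% of all genes higher) and 0 without the cKO set 1 arrays (2.82%). It became 2 without Het set 2 (7.66%), 1 without Het set 1 (1.16%), and 0 with no filter (0%). Both comparisons use the same total keratinocyte arrays.

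Other genes of the cycle differed between HG and bulge in the same fit, where 8.44% of 12589 genes were higher and 10.7% lower. Of 49 further replication genes, 33 were higher in HG and 1 was lower, with a median of 0.89. Dtl, which directs Cdt1 to degradation, rose by 2.45, Ticrr, which acts in helicase activation, by 2.44, the nuclease Dna2 by 2.40 and the PCNA partner Pclaf by 2.31, whereas Rrm2b, the ribonucleotide reductase subunit of resting and damaged cells, fell by 0.88. Ticrr (3.72, 4.34, 4.32 and 3.9) and Chtf18 (3.07, 2.45, 3.62 and 3.7), both among the 33, lay below the floor on every bulge array. They passed the filter through HG arrays alone and so had to differ. Of 24 genes of the E2F and Rb axis 15 were higher and 0 lower, led by E2f8 (2.74), Mycn (2.50), E2f3 (2.25) and Ccna2 (2.18). All 26 mitosis genes tested were higher, with a median of 2.18 and Kif20a (2.82), Bub1 (2.73), Ndc80 (2.69) and Ttk (2.67) at the top. The differences of Ndc80 and Kif20a depend on the floor. In bulge, Ndc80 lay below it in cKO set 1 (2.62) and Het set 1 (3.23), and Kif20a in cKO set 1 (2.23). Of 14 checkpoint and repair genes 10 were higher, Brca1 by 2.78 and Exo1 by 2.18 among them. The 9 cell cycle inhibitors held 0 higher and 2 lower, the growth arrest gene Gas1, which fell by 1.82, and Cdkn1c, encoding p57, which fell by 1.44.

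In Het, set 2 was set against set 1 to compare stem cells that the labels call activated with quiescent ones. The HG array of Het set 2 was at least 2-fold higher than that of Het set 1 for 23 of 45 members and lower by as much for 0, where 8.84% of all genes were higher, with a median of 1.00 over the members (all genes -0.14). With 1 array on each side there is no test. Quantile normalization moved the median of all genes to 0.04 and the count of members to 24. The largest differences between these 2 arrays were those of Mcm2, Cdc6, Rrm2, Mcm10, Pold2, Gins1, Rfc4 and Uhrf1, with Mcm2 at 11.62 in set 2, against 9.42 in set 1. Over HG and bulge, the second Mcm2 probe set gave a set difference of 0.80, against 1.43 for the one used. By role the median difference lay between 0.56 for the clamp and its loader and 1.30 for the E-type cyclins. Het HG set 2 was the highest of the 12 arrays for 43 of 45 members, against 19% of all genes, the exceptions being Gins2 and Rfc1.

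In the bulge and total keratinocyte arrays of Het the medians were smaller than in HG, a contrast that was not tested. In bulge, 2 members, Tk1 and Mcm5, were at least 2-fold higher in set 2 than in set 1 (3.89% of all genes), with a median of 0.37. In total keratinocytes 9 members were (4.52% of all genes), Rfc4, Rpa3, Ccne1, Cdc6, Gins1, Gmnn, Tk1, Cdc45 and Gins4, with a median of 0.72, and all 45 members were higher in set 2, where 47.5% of all genes were. Het set 2 was the highest of the 4 total keratinocyte arrays for 44 of 45 members, against 25.3% of all genes, and the highest of the 4 bulge arrays for 27, against 30.3%. The fraction to which the labels give no state thus also held higher values in Het set 2.

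**Figure D3:**
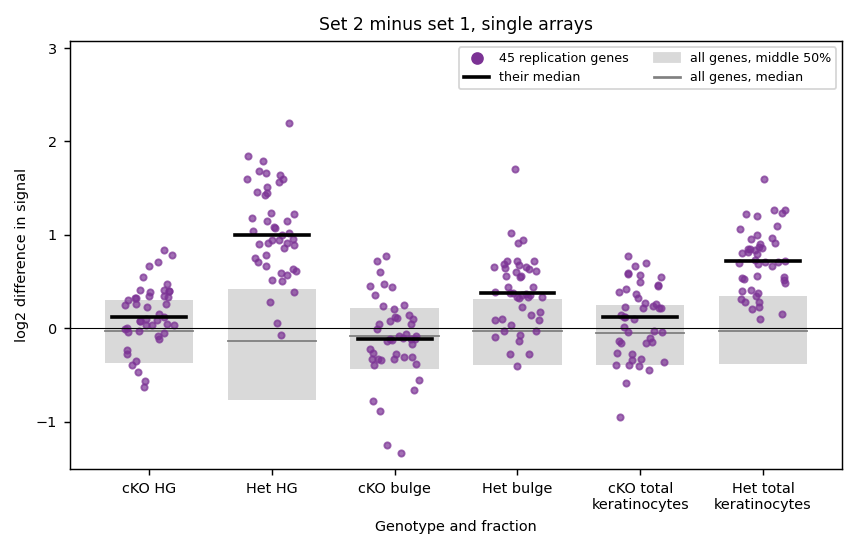
Log2 difference in signal between set 2 and set 1 for single arrays of each genotype and fraction; points are the 45 genes, black lines their median, and grey boxes and lines the middle 50% and median of all genes above the pooled median signal on the higher array. The medians in HG, bulge and total keratinocytes are 0.12, -0.11 and 0.12 in cKO, against 1.00, 0.37 and 0.72 in the Het arrays of those fractions.

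A fit to the 8 HG and bulge arrays, in which the fractions serve as the observations of a condition, called 1 of 44 members higher in Het set 2 than in Het set 1, where 0.0635% of 12589 genes were called higher, and 0 lower, where 0.643% were. This was Mcm5, by 1.23 (SE 0.22, adjusted p = 0.0486), and its adjusted p lay between 0.00131 and 0.671 over the alternatives. The differences were positive for 43 of 44, with a median of 0.70 (all genes -0.09), and 26 members were higher at an unadjusted p under 0.05 (5.71% of all genes). Those with differences over 1 in size were Mcm2, Tk1, Rrm2, Mcm5, Pold2, Rfc4, Gins1, Pold1, Uhrf1, Mcm10 and Ccne1, from 1.43 for Mcm2 to 1.00 for Ccne1. The call depended on single arrays: 30 members were higher without the Het bulge set 2 array, when the result rests on HG alone in set 2 and 7.74% of all genes were called higher, 1 without Het HG set 2 (0.287% of all genes), and 0 without any 1 of the other 6. Of 26 mitosis genes 2 were called, Spc25 (1.78) and Cdc20 (1.61), with a median of 1.48 over the list.

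**Figure D4:**
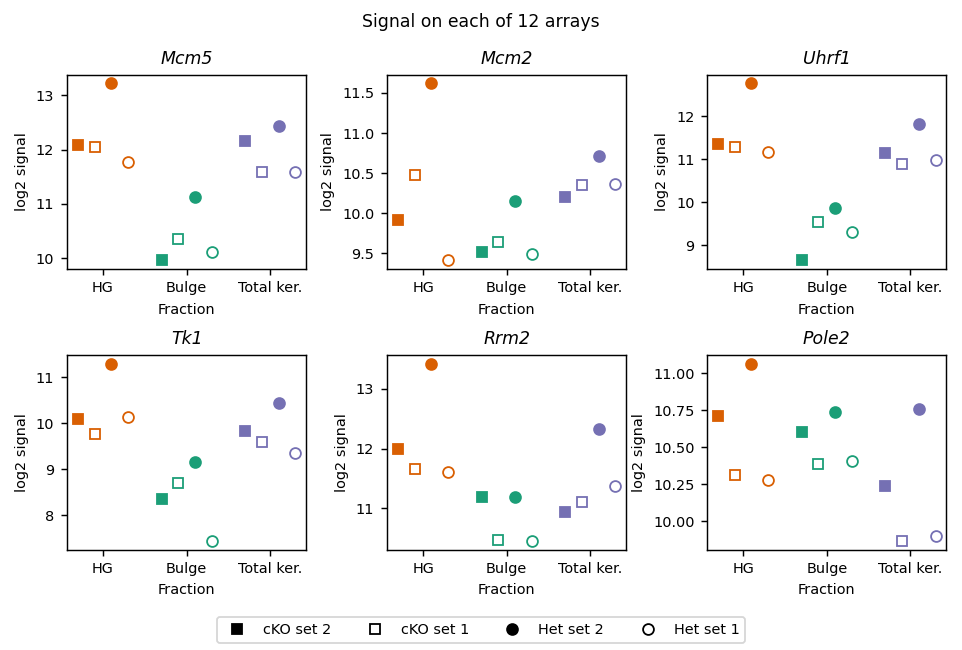
Log2 signal of 6 genes on each of the 12 arrays by fraction; squares are cKO and circles Het, filled symbols set 2 and open symbols set 1, and the axes do not start at 0. In HG the filled circle of Het set 2 stands highest in all 6 panels, at 13.22 for Mcm5 and 11.06 for Pole2.

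Het HG set 2, the highest array for 43 of 45 members, stood apart from the other HG arrays in other measures. Its median signal of 63.9 was the lowest of the 12 arrays, against 95.6 to 98.8 on the other HG arrays. The total keratinocyte arrays of set 2 lay close, at 65.5 in Het and 66.3 in cKO. Het HG set 2 also had the most probe sets below the floor, at 29.0%, against 21.2% to 28.2% on the others. The 7 hair germ markers summed to 39257 on it, against 17538 to 24085 on the other HG arrays. The 8 bulge markers summed to 27664, against 60080 to 74690, and the 5 basal keratinocyte markers to 53304, against 116448 to 135295. Krt15 made up most of the bulge marker sum, with a log2 signal of 14.28, against 15.70 to 16.03. The bulge markers did not move together. Among the HG arrays, Cd34 (7.65) and Nfatc1 (7.17) were lowest on Het HG set 2, whereas Lhx2 (12.35), Sox9 (9.19) and Tbx1 (10.22) were highest there. The 8 epidermal differentiation markers summed to 19654 on the Het HG set 2 array, against 42393 to 77666 on the other HG arrays, and the 8 immune markers to 1487, against 4720 to 5639. Krt10 and Sbsn made up most of the differentiation sum. Not all markers of that list were lowest on Het HG set 2. Ivl was 9.62 there, against 8.50 to 9.61, and Lor was 8.90, against 8.81 in cKO set 2. On other arrays, the 11 dissociation stress genes summed to 185803 on the Het bulge set 2 array, against 43154 to 83500 on the other HG and bulge arrays, with none called between the sets in Het. In total keratinocytes the stress genes summed to 213335 on cKO set 2, against 74501 to 104026, and 5 milk protein genes to 24954 on cKO set 1, against 66.9 to 108 on the others. Their part in the set differences was not tested.

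In cKO, set 2 and set 1 did not differ detectably. Single arrays of HG had 0 members changed at least 2-fold in either direction (4.1% of all genes were higher), with a median of 0.12. Bulge had 0 higher and 1 lower, Pold1 (8.79% of all genes were lower), with a median of -0.11, and total keratinocytes 0 in either direction (2.23% of all genes were higher), with a median of 0.12. Limma called 0 of 44 members in the HG and bulge arrays and gave 0 at an unadjusted p under 0.05, where 2.04% of all genes were higher and 4.13% lower, with a median of -0.02. The difference between the genotypes in the set effect, tested as an interaction, had 0 of 44 members past the threshold (0.00794% of all genes) and 7 at an unadjusted p under 0.05, all with a smaller set difference in cKO, where 3.04% of all genes were lower and 4.24% higher. These were Mcm2, Pold1, Uhrf1, Tk1, Mcm5, Pold2 and Rfc5, and the smallest adjusted p was 0.451, for Mcm5 (-1.41). Without the Het bulge set 2 array 10 members passed, all negative, where 2.93% of all genes did so.

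Within set 2, where the labels set aberrantly quiescent cKO cells against activated Het cells, the HG array of cKO was at least 2-fold lower than that of Het for 21 of 45 members and higher for 0 (8.45% of all genes were lower), with a median of -0.90 (all genes 0.10). The 21 came from every role except RPA: Cdc6 and Gmnn, Mcm2, Mcm3 and Mcm5, Mcm10, Gins1 and Gins3, both E-type cyclins, Pola2, Pold1 and Pold2, Rfc4, Fen1 and Lig1, all 4 nucleotide supply genes, and Uhrf1. In bulge Cdc6 was at least 2-fold higher and Mcm5, Gins2 and Uhrf1 lower in cKO (6.4% of all genes were lower). In total keratinocytes Mcm10 and Rrm2 were at least 2-fold lower (4.59% of all genes were lower) and no member was higher in cKO, where 46.9% of all genes were, with a median of -0.45. The Het arrays of set 2 enter both these comparisons and those between the sets.

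In the fit to HG and bulge, limma called 0 of 44 members between cKO and Het in set 2 (0.00794% of all genes were called lower) and gave 14 at an unadjusted p under 0.05, all lower in cKO, where 7.24% of all genes were lower and 10.4% higher, with a median of -0.57. The smallest adjusted p was 0.0725, for Mcm5, at -1.15 with an SE of 0.22. Uhrf1 (-1.31), Mcm2 (-1.17) and Gins1 (-1.13) had adjusted p-values of 0.112, 0.149 and 0.131. Without the Het bulge set 2 array 22 members were lower in cKO (7.87% of all genes), and without the Het HG set 2 array 1 was (0.63%).

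**Figure D5:**
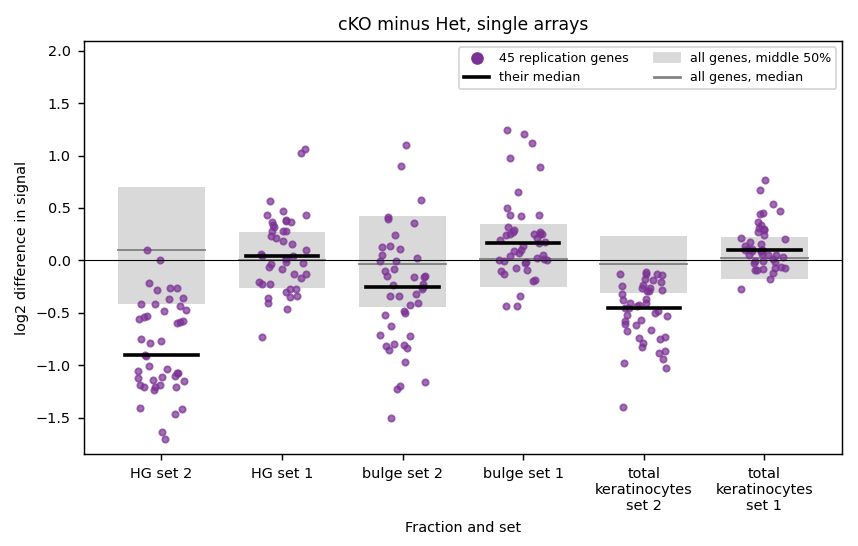
Log2 difference in signal between cKO and Het for single arrays of each fraction and set, with points, lines and boxes as in the plot of set 2 against set 1. The medians of the 45 genes are -0.90, -0.26 and -0.45 in HG, bulge and total keratinocytes of set 2, against 0.04, 0.16 and 0.10 in set 1.

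Within set 1, cKO and Het lay close. HG had 2 members at least 2-fold higher in cKO, Mcm2 and Pole (3.09% of all genes were higher), bulge had 3, Tk1, Cdc45 and Pold1 (7.17% of all genes were higher), and total keratinocytes 0 (1.99% of all genes were higher), with 0 lower in each. Limma called 0 of 44 members and gave 1, Pold1, higher at an unadjusted p under 0.05, where 0% of all genes were called and 1% were higher and 1.07% lower at that unadjusted p, with a median of 0.13. Over all 12 arrays, limma called 0 of 45 members and 0% of 12749 genes between cKO and Het. At an unadjusted p under 0.05 there were 7 members, Gins1, Rpa3, Rrm1, Fen1, Rrm2, Mcm3 and Uhrf1, all lower in cKO, where 3.69% of all genes were lower and 4.93% higher. Gins1 was lower in cKO in 6 of 6 pairs of arrays, by -0.62 (SE 0.18, adjusted p = 0.501). In the 4 total keratinocyte arrays limma called 0 of 44 members and 1, Rrm2, was lower in cKO at an unadjusted p under 0.05 (1.12% of all genes). The median there was -0.16, and 0.17 without the Het set 2 array.

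The members varied together over the 12 arrays. The correlation of each with the mean of the other 44 lay between 0.39 for Pole2 and 0.98 for Mcm7 (Pearson r over 12 arrays that share fractions, genotypes and array scaling), with Rfc1 (0.59) and Gins4 (0.62) next to Pole2 at the low end. Among 12704 other genes those closest to the mean of the members were Kif23 (0.99), Ncbp1, Melk, Plk4, Asf1b, Pclaf, Shcbp1, Trip13, Top2a and Myb (0.98). The mean of the mitosis list followed the mean of the members with r = 0.98. A further 52 probe sets belong to 33 of the members, and of the 40 that passed the filter, for 29 members, 39 had a positive difference between HG and bulge and 36 between Het set 2 and set 1. The exception between HG and bulge was a second Cdc45 probe set (-0.14), and the further Rfc2 probe sets gave 0.16 and 0.41, against 0.69 for the one used. The same Cdc45 probe set gave -1.79 between Het set 2 and set 1, against 0.77 for the one used. The other exceptions there were probe sets of Gins3 (-0.33, against 0.46 for the one used), Tyms (-0.12) and Orc1 (-0.08). The probe set used is of a type that can bind related transcripts (x or s in its name) for 10 members, Mcm5 among them, but another Mcm5 probe set gave 1.92 between HG and bulge and 1.29 between Het set 2 and set 1.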

How the data were processed

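The deposited table gives linear MAS5 signal intensity, which the authors computed per the submitters' processing notes, with no version given. Biotin-labelled cRNA came from 2 µg of Trizol-extracted RNA, per the labels. In the values, every array has a mean of 500 once 2% of probe sets are trimmed from either end, and no further scaling was applied. Of 45101 probe sets, 64 were controls and unused, and of the rest 34945 had 1 gene symbol, 932 several and 9160 none. Values below the pooled 25th percentile (20.7) were set to it before the log2, and a fit tested the genes that exceeded the pooled median (84.7) on 2 or more of its arrays. Two-sided tests came from lmFit and eBayes with a trend in limma 3.58.1 (R 4.3.3), with Benjamini-Hochberg adjustment over all genes tested and a threshold of 0.05. Fractions were compared with genotype and set as a block of 4 levels, and genotypes over 12 arrays with fraction and set as a block of 6 levels. In the fit of sets and genotypes to the 8 HG and bulge arrays, fraction was a term. Between single arrays, changes of 2-fold or more were counted where the brighter array exceeded the pooled median. The number of arrays limits the precision. The members, the gene lists and the tests were chosen with earlier results of these data known. Members past the threshold were named up to 8 in each direction, and all array values are given for the members of each role with the largest HG minus bulge difference and the largest set difference in Het. Mcm3, Mcm6, Mcm7, Pole2, Tyms and others outside that rule were named after their values were seen. The alternatives were quantile normalization, other floors and filters, the mean of all probe sets, a 2-fold minimum, no trend, all 12 arrays, other blocks, and leaving out arrays. The fits were tested on simulated data.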

Additional observations from a re-analysis of the deposited data

How the results depend on the processing

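No member past the threshold changed sign in any setting, whereas members short of it did, up to 27 of 44 for cKO against Het in total keratinocytes. Over the settings, results for single members kept their side of the threshold in 449 cases, lost it in 96 and gained it in 16. Leaving out arrays in turn gave 23 to 34 members for HG against bulge, 0 to 2 for HG against total keratinocytes, 16 to 23 for bulge against total keratinocytes, 0 to 30 for Het set 2 against set 1, 0 to 10 for the interaction and 0 to 22 for cKO against Het in set 2. With no filter the counts were 17, 0, 12 and 0 for the first 4 of these. There 1.25%, 0%, 3.48% and 0% of all genes were called in the same direction. HG against total keratinocytes had 4 members with the mean of all probe sets (4.52% of all genes), 0 without trend (3.41%) and 0 with a 2-fold minimum (3%). It had 4 with all 12 arrays (5.11%) and 1 with no replicate block (1.75%). Bulge against total keratinocytes had 12 with a 2-fold minimum (5.8% of all genes lower). The set 2 difference in Het had 0 with no floor (0.0556% of all genes higher), with a floor at the pooled median (0.00794%) and with the mean of all probe sets (0.00861%). It had 0 without trend (0%) and 11 with all 12 arrays (1.44%). Between the sets in cKO, limma called 0 members in every setting. Between the single bulge arrays of cKO, without a test, Pold1 alone was at least 2-fold lower in set 2 (8.79% of all genes). That count of 2-fold changes was 2 with the mean of all probe sets and 2 with no minimum signal. With no minimum signal they were Orc1 (-1.34) and Pold1 (-1.25), both lower in set 2. No replicate block gave 28 members for HG against bulge (5.57% of all genes) and 21 for bulge against total keratinocytes (10%). The sets of total keratinocytes share only a number, the set differences of the genotypes correlated with r = 0.40 across genes over 2 pairs, and with set as a replicate block 0 members passed. The causes were not tested.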
